A study of Mus musculus with 4 samples.

Results

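The clustered protocadherin genes are 57 of the 21755 protein-coding genes on mouse chromosomes 1 to 19 and X in the GENCODE M21 annotation. They were chosen by symbol (Pcdha, Pcdhac, Pcdhb, Pcdhga, Pcdhgb or Pcdhgc followed by a number) within chr18:36880184-37891873 of mm10, which runs from 50 kb before the first of them to 50 kb after the last, and all lie on the plus strand. The alpha cluster has 14 members, the beta cluster 22 and the gamma cluster 21. CTCF is a zinc-finger DNA-binding protein that helps to form chromosome loops. It was mapped there by chromatin immunoprecipitation and sequencing in frozen gastrocnemius, the large calf muscle. All tissue came from adult female B6CASTF1/J mice aged 2 months, with no treatment named. Pool E and pool F each combined 2 tissue samples and gave 2 libraries, which are technical replicates. The libraries of a pool are merged in every peak list, so no value below has a spread between replicates, and differences between members or pools are given without a test.

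Clustered protocadherins are cell-surface adhesion proteins known mainly from neurons, where each cell uses a small set of them as an identity tag. In the alpha and gamma clusters each variable first exon has its own promoter and is spliced to constant exons shared by the cluster, whereas each beta gene is a single exon. CTCF and cohesin are known to bind most of these promoters together with enhancers next to the clusters, and DNA methylation is known to keep CTCF off unused promoters. The conserved promoter element that contains the CTCF site is known to be missing from Pcdhac2, Pcdhb1, Pcdhgc4 and Pcdhgc5. Muscle tissue holds several cell types, and peak lists cannot tell binding in few cells from weak binding in many. The lists hold no expression values, so the tissue label was not checked against marker genes.

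A start counted as occupied when a peak summit lay within 1000 bp of the gene's 5′ end. Peak lists were thresholded by the depositors with the irreproducible discovery rate (IDR), which asks whether a pair of inputs rank the same peaks alike. In the conservative list, whose inputs matched pool E and pool F, 40 of the 57 protocadherin starts had a summit (70.2%, 95% Wilson interval 57.3 to 80.5%), against 20.6% of all protein-coding starts. The clusters were unlike each other. Summits stood at 19 of 22 beta starts (86.4%, 66.7 to 95.3%) and 18 of 21 gamma starts (85.7%, 65.4 to 95.02%), but at 3 of 14 alpha starts (21.4%, 7.57 to 47.6%), a share near that of all coding genes. These intervals cover counting error only, and neighbouring promoters are not independent of each other. No start had more than 1 summit in that list.

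**Figure D1:**
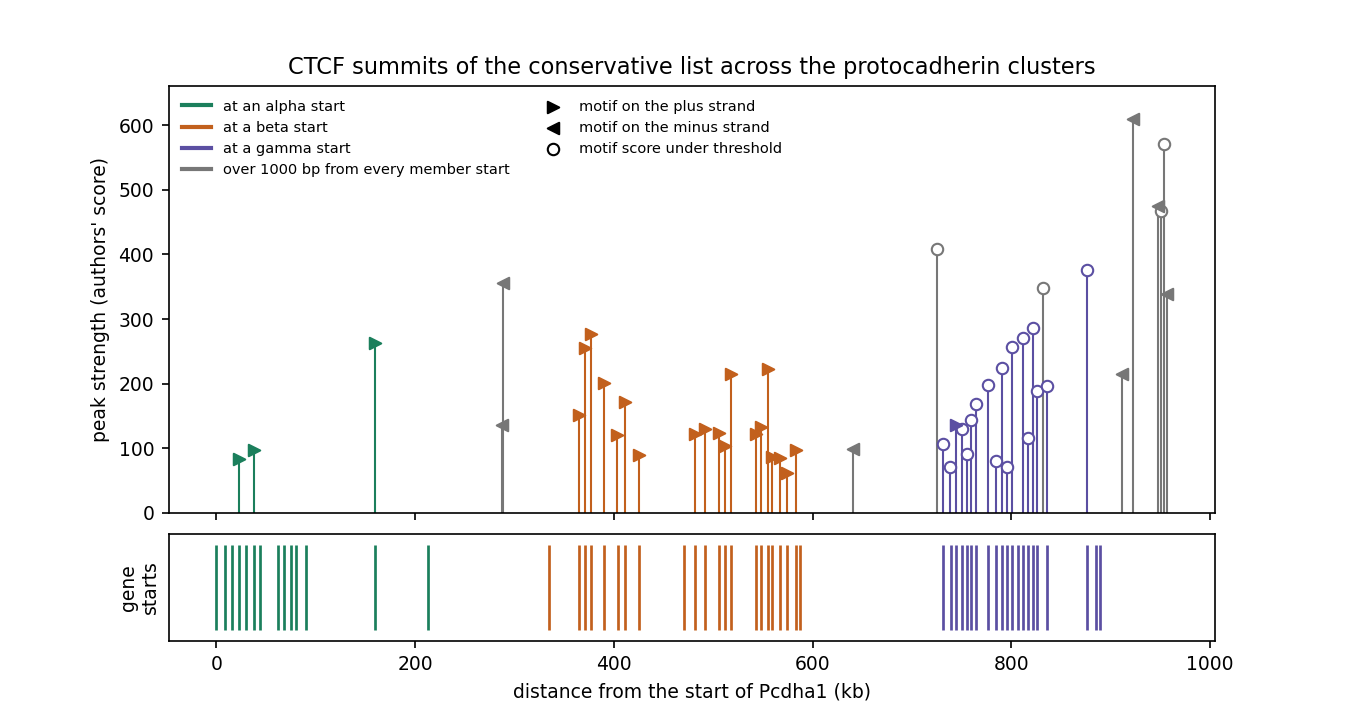
Peak strength (the authors' score, vertical axis) of the 51 conservative-list summits against distance from the Pcdha1 start in kb, with gene starts in the lower strip, colours for the clusters and arrows for the strand of a called CTCF motif. The 3 alpha and 19 beta summits carry rightward arrows, whereas leftward arrows stand only on grey summits away from the starts.

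The number of occupied starts depended on the list. The combined list, which rests on both pools, had summits at 9 alpha, 20 beta and 19 gamma starts, 48 in all, where 25.1% of coding starts had one. The pool E list had them at 10 alpha, 21 beta and 19 gamma starts, 50 in all, against 25.8% of coding starts. The pool F list had them at 2 alpha, 10 beta and 13 gamma starts, 25 in all, against 16.2% of coding starts. Thus 25 members had a summit in all 4 lists, 25 had one in some lists only, and 7 had none in any of them. Those 7 were Pcdha1, Pcdha3, Pcdha12, Pcdhac2, Pcdhb1, Pcdhgc4 and Pcdhgc5. The same split over lists was not counted for all coding starts, so it has no background share.

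**Figure D2:**
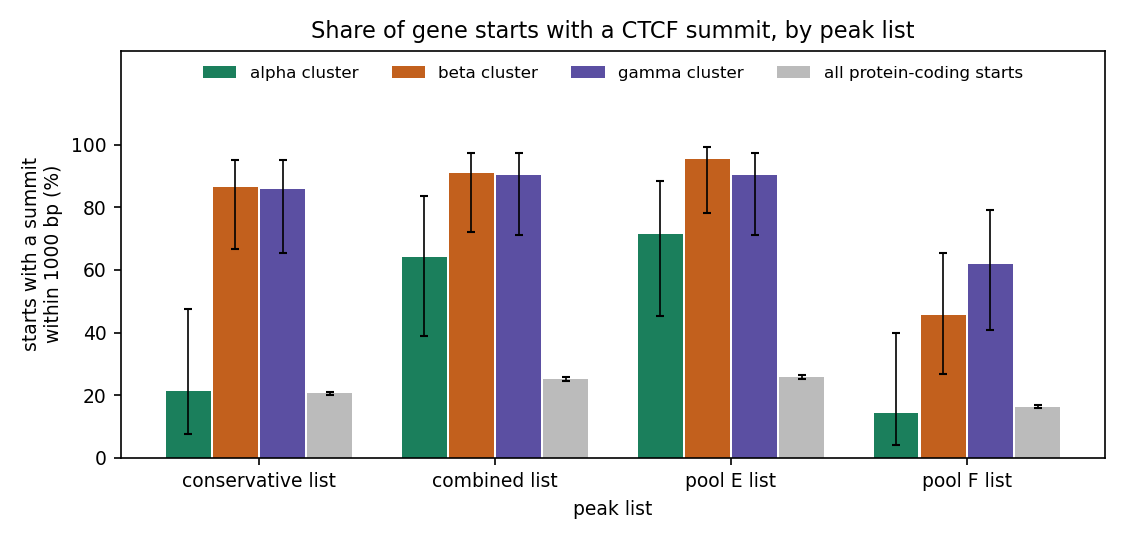
Share of starts with a CTCF summit within 1000 bp (percent) in the conservative, combined, pool E and pool F lists, for the alpha, beta and gamma clusters and for all protein-coding starts, with 95% Wilson intervals. The beta and gamma bars exceed 85% in the first 3 lists, while the alpha bar stands at 21.4% in the conservative list and 71.4% in the pool E list.

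Peak strength is the authors' deposited score on an unstated scale, and strengths are compared within a list, apart from the values of pool E and pool F, whose scales may differ. Most protocadherin summits were of modest strength. Their median was 131.6 (62.1 to 376.3, 40 starts), the median at 4450 occupied starts of other coding genes was 218.4, and the median of all 42163 conservative peaks was 245.6. Only 7 of the 40 lay above that last value: Pcdhac1 in the alpha cluster, Pcdhb3 and Pcdhb4 in the beta cluster, and Pcdhgb5, Pcdhgb6, Pcdhgb7 and Pcdhgc3 in the gamma cluster. A high share of occupied promoters therefore went with peaks that were mostly in the weaker part of the list.

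**Figure D3:**
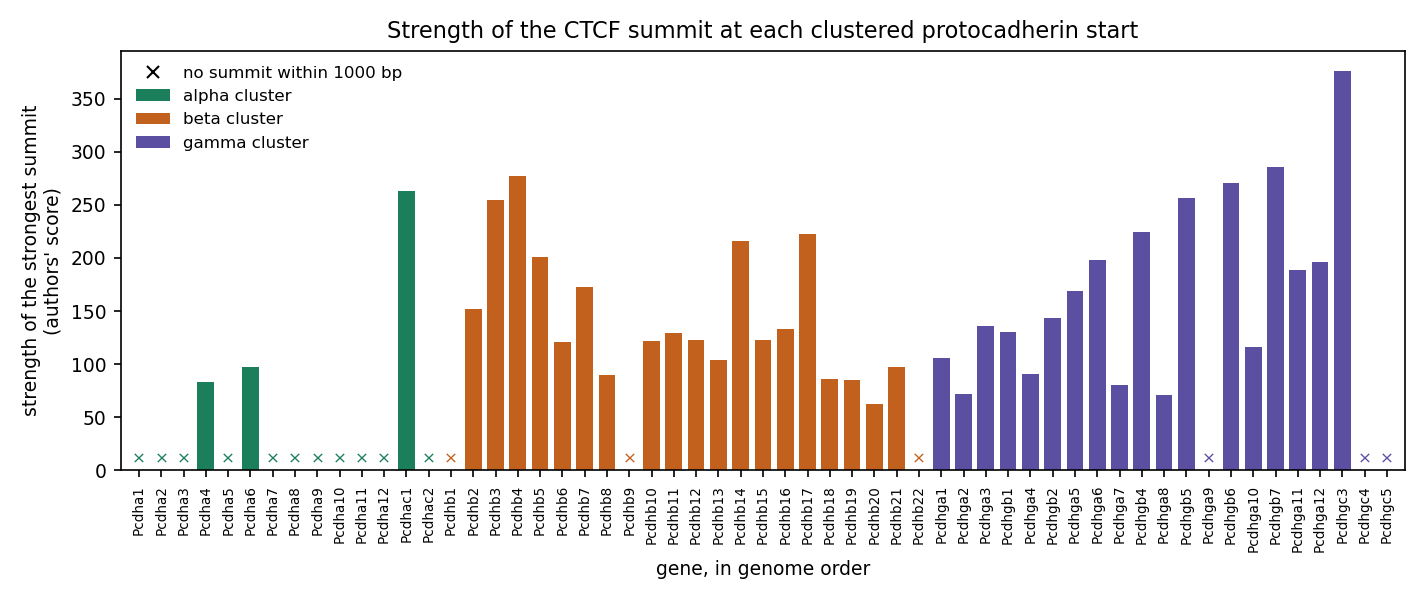
Strength (authors' score) of the conservative-list summit at each of the 57 starts in genome order, with a cross where no summit lay within 1000 bp. Alpha starts are mostly crosses, and the tallest bar is Pcdhgc3 at 376.3.

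In the beta cluster, whose proteins are made from single exons, strengths ran from 62.1 to 277.04 with a median of 122.9. Pcdhb4 had the strongest summit (277.04), with an input strength of 198.1 in pool E and 76.8 in pool F. Pcdhb3 followed at 254.6, with 186.3 in pool E and 71.99 in pool F. Pcdhb17 came next at 222.5, with 165.02 in pool E and 57.97 in pool F. Pcdhb20 had the weakest at 62.1, with 41.9 in pool E and 22.4 in pool F. Strength tended to be lower toward the end of the cluster: Spearman's rho between strength and gene order was −0.58 over 19 occupied starts, although 9 of the 18 steps from one occupied start to the next were upward. These starts share libraries and lie in tandem copies of related sequence.

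The 3 unoccupied beta starts differed in how far they were from a call. Pcdhb1, the first beta gene, had its nearest conservative summit 29809 bp away and no candidate peak within 1000 bp in any ranked list, the longer lists that hold candidates whatever their IDR. Pcdhb9 had a summit in the pool E list alone, 49 bp upstream of its start with a strength of 25.1, and its nearest conservative summit was 10780 bp away. Pcdhb22, the last beta gene, had a summit in the combined list (strength 46.1) and in the pool E list (38.8). The combined-list summit lay 396 bp downstream of the gene's annotated start but at −214 bp from its start codon. The nearest conservative summit to Pcdhb22 was 4296 bp away. A further 9 occupied beta starts had no summit in the pool F list: Pcdhb6, Pcdhb8, Pcdhb11, Pcdhb12, Pcdhb13, Pcdhb15, Pcdhb18, Pcdhb19 and Pcdhb20. Each of the 9 had one in the pool E list, at strengths from 41.9 (Pcdhb20) to 98.5 (Pcdhb11).

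In the gamma cluster, strengths ran from 71.4 at Pcdhga8 to 376.3 at Pcdhgc3, with a median of 156.0. Pcdhgc3, a C-type gene that lies close to the constant exons, had an input strength of 245.7 in pool E and 126.6 in pool F. Pcdhgb7 (285.6) had 180.8 in pool E and 103.2 in pool F, and Pcdhgb6 (270.6) had 177.6 in pool E and 88.2 in pool F. Pcdhga8, the weakest, had 52.7 in pool E and 18.03 in pool F. Pcdhga1, the first gamma gene, had a summit of 106.1 placed 113 bp upstream of its start.

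The A and B subfamilies of the gamma cluster, which are named for sequence similarity and are interspersed along it, did not have the same range. All 6 Pcdhgb starts were occupied, with strengths from 129.9 to 285.6 and a median of 240.6. Of 12 Pcdhga starts 11 were occupied, with strengths from 71.4 to 197.7 and a median of 116.5. The ranges overlap between 129.9 and 197.7. Along the chromosome the Pcdhgb strengths were 129.9 (Pcdhgb1), 143.2 (Pcdhgb2), 224.5 (Pcdhgb4), 256.8 (Pcdhgb5), 270.6 (Pcdhgb6) and 285.6 (Pcdhgb7).

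That order continued beyond the B genes. Pcdhgb8, which GENCODE lists as a polymorphic pseudogene and which is therefore not counted among the 57, had a summit of 347.4 placed 145 bp upstream of its start, and Pcdhgc3 followed at 376.3. These genes were singled out after their values were seen. Each of the 7 steps was upward in the conservative list and in its pool E input, and 6 of 7 were upward in its pool F input. Among occupied Pcdhga starts 6 of 10 steps were upward. Over all 18 occupied gamma starts Spearman's rho between strength and gene order was 0.61.

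Pcdhgc4 and Pcdhgc5, the last C-type genes, had no summit in any thresholded list, with nearest conservative summits 8763 and 13197 bp away. In the ranked lists Pcdhgc5 had no candidate within 1000 bp, and Pcdhgc4 had failing ones in pool F only, at −458 and −257 bp from its start. Pcdhga9 had no conservative summit (nearest 5067 bp away) but had one 73 bp upstream of its start in the combined list (strength 53.8) and in the pool E list (41.8). Pcdhga4, Pcdhga5, Pcdhga7, Pcdhga8 and Pcdhga10 were occupied in the conservative, combined and pool E lists and not in the pool F list.

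In the alpha cluster the conservative list held 3 occupied starts. Pcdhac1, a C-type gene, had the strongest alpha summit at 262.6, placed 77 bp upstream of its start, with an input strength of 175.4 in pool E and 83.9 in pool F. Pcdha6 had a summit of 97.1, with 70.8 in pool E and 26.05 in pool F. Pcdha4 had the weakest at 83.4, with 63.4 in pool E and 18.4 in pool F, and it had no summit in the pool F list. The Pcdha6 and Pcdha4 summits were not at the promoter but inside the variable exon, 569 and 571 bp downstream of the annotated starts.

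The 11 alpha starts without a conservative summit were Pcdha1, Pcdha2, Pcdha3, Pcdha5, Pcdha7, Pcdha8, Pcdha9, Pcdha10, Pcdha11, Pcdha12 and Pcdhac2. Their nearest conservative summits lay between 5602 bp (Pcdha7) and 53567 bp (Pcdhac2) away, with Pcdha1, the first gene of the cluster, at 23035 bp. GENCODE carries the symbol Pcdha11 on 2 records, and the one that starts at 37005203 is named Pcdha10 here after RefSeq. In the combined list 6 of them were occupied: Pcdha9 at a strength of 113.5, Pcdha8 at 82.2, Pcdha11 at 79.5, Pcdha10 at 65.6, Pcdha7 at 49.1 and Pcdha5 at 48.9. All 6 were also in the pool E list, which added Pcdha2 at 27.4 placed 94 bp upstream of its start. None of the 7 was in the pool F list.

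The ranked lists hold alpha candidates that did not pass the IDR threshold of 0.05. Behind the conservative list, 9 alpha, 21 beta and 19 gamma starts had a candidate of any IDR, where 47.1% of coding starts had one. In the alpha cluster 6 of those 9 starts had failing candidates alone, as did 2 beta starts and 1 gamma start. Over all 21755 coding starts, 10243 had a candidate behind the conservative list and 4490 had a summit in the conservative list itself. Failing candidates alone are therefore common among coding starts. The 11 failing alpha candidates had input strengths of 14.6 to 97.5 in pool E and 7.18 to 13.3 in pool F, with IDR values from 0.123 to 0.61. The Pcdha9 candidate had 97.5 in pool E and 13.1 in pool F, and the Pcdha8 candidate had 71.2 in pool E and 11.07 in pool F. The 11 failing alpha candidates had a median log2 ratio of pool E over pool F of 1.98. It was 2.04 for 2 failing beta candidates and 1.98 for 1 failing gamma candidate, so the ratio was not particular to alpha. Over all 60570 failing candidates of the ranked list, which were not matched for strength, it was 0.35. With pool E alone, all 14 alpha starts had a ranked candidate, including Pcdhac2 132 bp downstream of its start, against 51.5% of coding starts. With pool F alone, 6 alpha, 19 beta and 19 gamma starts did, against 36.9%. Behind the combined list 13 alpha, 21 beta and 19 gamma starts did, against 50.3%.

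Pool E strengths exceeded pool F strengths at all 40 occupied starts. The log2 ratio of pool E over pool F had a median of 1.28 (SD 0.33 over starts), with 1.44 at 3 alpha, 1.37 at 19 beta and 1.16 at 18 gamma starts. Over all 42178 ranked candidates that passed the threshold the median was 1.03 (SD 0.39), and over the 26542 of them with strengths in the members' range it was 1.20 (SD 0.33). Pcdhga10 had the highest ratio, 2.43, with 96.9 in pool E and 18.02 in pool F and an IDR of 0.036. The 15 occupied starts missing from the pool F list had a median conservative strength of 91.1 (up to 168.7), and the 25 present there had a median of 196.4 (from 71.7). Over all coding starts 4490 had a summit in the conservative list and 3535 in the pool F list. The overlap of those coding starts was not counted, so the members' loss in pool F has no matching share. Read depth is unknown in both pools, and its part in these differences was not tested.

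The summits at beta and gamma promoters lay in a narrow place. Their median position was 64 bp upstream of the annotated start in the beta cluster and 56 bp upstream in the gamma cluster. Measured from the start codon of the variable exon, the spread narrowed: the median was −234 bp (SD 22.2, −257 to −162, 19 starts) for beta and −240.5 bp (SD 22.1, −273 to −180, 18 starts) for gamma. From the annotated start the SD was 54.4 bp for beta and 94.4 bp for gamma. Much of that larger SD came from Pcdhb17 and Pcdhga12, whose summits fell 126 and 318 bp downstream of their annotated starts. These summits lay at −238 and −219 bp from their codons. The quartiles narrowed less. For beta they were −71.5 and −46 bp from the start and −245 and −228 bp from the codon. For gamma they were −80.25 and −32 bp from the start and −247.25 and −219.25 bp from the codon. Summits within the 200 bp upstream of the annotated start made up 18 of 19 in the beta cluster and 17 of 18 in the gamma cluster, and 28.9% of the 4450 at other coding starts.

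**Figure D4:**
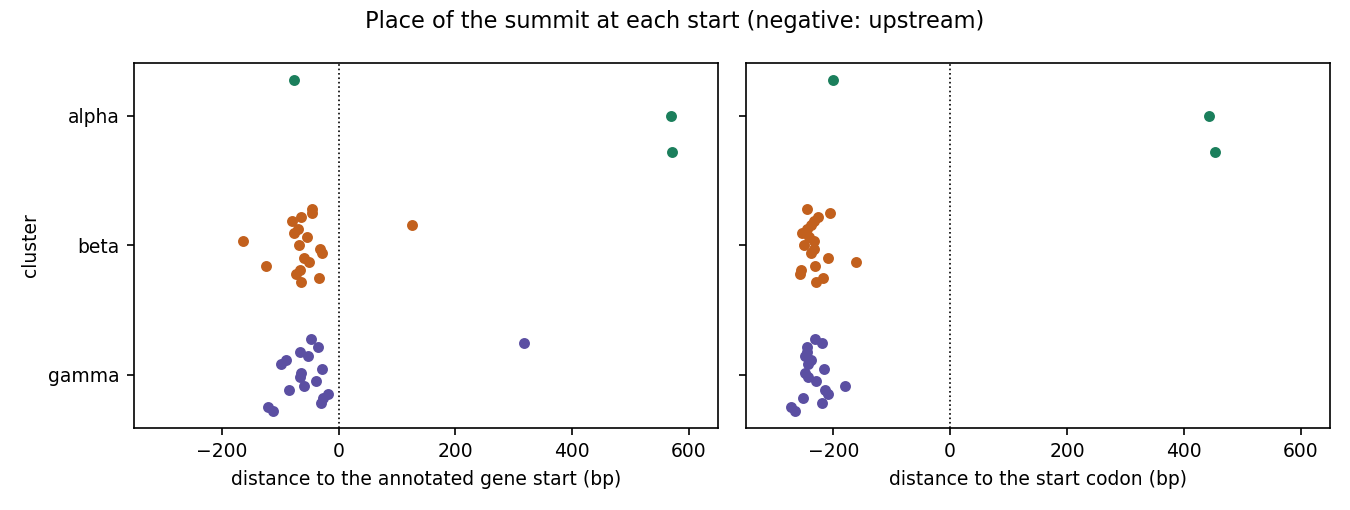
Distance in bp from each conservative-list summit to the annotated gene start (left) and to the start codon (right), 1 point per start, negative values upstream. Beta and gamma points gather between −273 and −162 bp of the codon, while the Pcdha6 and Pcdha4 points lie at 444 and 453 bp inside the exon.

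A CTCF motif was scored with a weight matrix of 20 positions learned from summits on odd-numbered autosomes, so that no protocadherin summit entered it. The letters at its informative positions are shown because every motif statement below rests on them, with N where no letter prevailed.
CTCF motif: NNNCCAGNAGAGGGCANNNN
A summit carried the motif when a match on either strand, centred within 50 bp, scored at least 7.955 bits, a score that 5% of displaced windows reach. On even-numbered autosomes 86.5% of 18377 summits carried it, against 4.72% of windows displaced by 2000 bp. A match is a description of the letters and not evidence of a bound site.

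Beta and gamma summits differed in this motif. It was called at 19 of 19 beta summits (100%, 83.2 to 100%), with scores of 8.24 to 13.2, and at 1 of 18 gamma summits (5.56%, 0.988 to 25.8%), that of Pcdhga3 with a score of 10.3. All 3 alpha summits carried it, which gave 23 of 40 over the clusters (57.5%, 42.2 to 71.5%), against 59.6% at other coding starts. The members' own displaced windows held it in 1 of 80. All 23 motifs read in the direction of the gene; at other coding starts 1541 read with the gene and 1112 against it. A low score did not go with a weak summit in the gamma cluster: Pcdhgc3 scored −3.07 bits and had the highest strength of the 40. A limit of 100 bp in place of 50 bp added Pcdhga12, with a match of 15.6 bits in the direction of the gene. Whatever its score, the best match within 50 bp read with the gene at 14 of 18 gamma summits. It did so at 2513 of 4450 other coding starts. With a consensus that allows 3 mismatches in place of the matrix, 73.7% of beta and 33.3% of gamma summits had a match, so the size of the difference depends on the motif rule.

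**Figure D5:**
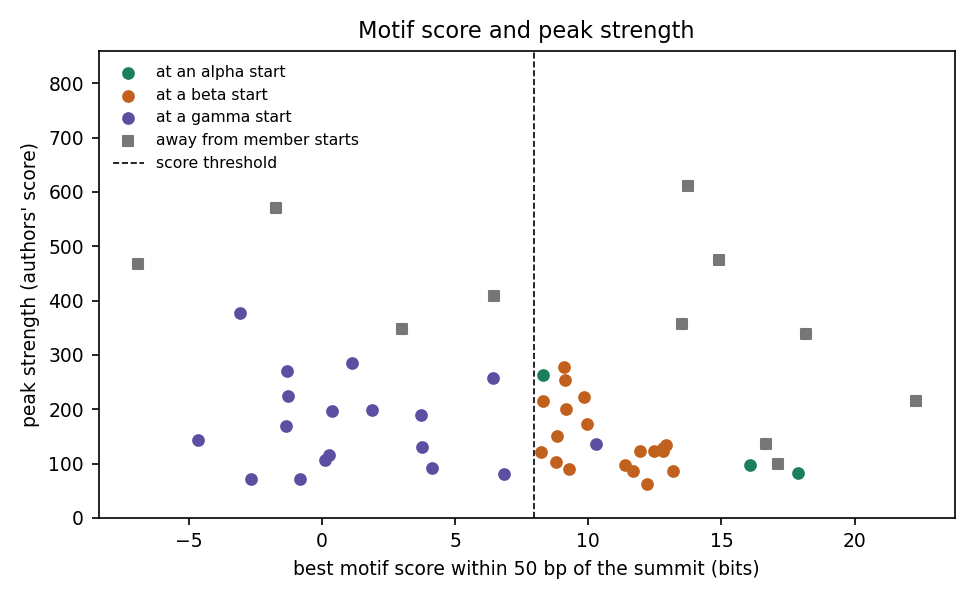
Peak strength (authors' score) against the best motif score within 50 bp of the summit (bits) for the 51 summits of the region, coloured by cluster, with the threshold as a dashed line. Beta points lie to the right of the line and all gamma points but Pcdhga3 to its left, at overlapping strengths.

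Within the beta cluster a higher motif score did not go with a stronger summit. The 10 beta summits with scores under 11 bits had strengths of 89.5 to 277.04 (median 186.6), and the 9 with scores of 11 or more had 62.1 to 133.2 (median 122.2). Of the first 10, 7 were stronger than all of the other 9. The dividing score was chosen after the values were seen. Spearman's rho between strength and score was −0.37 over 19 beta summits and −0.14 over 18 gamma summits, which share libraries and lie in tandem copies of related sequence.

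In the alpha genes the motif occurs at 2 places. Within 400 bp upstream of the start codon 10 of 14 alpha genes had a match, with scores of 8.53 to 12.6, and within the first 800 bp downstream of the codon 11 of 14 had one, with scores of 8.25 to 20.9. Over 21476 coding genes with an annotated codon the shares were 18.9% upstream and 32.1% downstream. All of these alpha matches read in the direction of the gene, and 8 genes had both. In 10 of the 11 genes the exon match was centred 453 to 465 bp downstream of the codon, at exactly 462 bp in 7 of them; in Pcdha9 it lay at 552 bp. The beta genes had the upstream match in 20 of 22 and a downstream one in 4 of 22, and the gamma genes had 2 of 21 and none.

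The alpha peaks fell at both places. In the pool E list 5 alpha genes had a summit upstream of the codon alone, 2 in the exon alone (Pcdha4 and Pcdha7) and 3 at both. Pcdha8 had 31.98 upstream and 71.2 in the exon, Pcdha6 had 41.4 upstream and 70.8 in the exon, and Pcdha5 had 40.2 upstream and 28.6 in the exon. The upstream score of Pcdha6 was 6.77 bits, under the threshold, and its exon score was 16.1. Pcdha9, with a score of 11.7 upstream and 13.7 in the exon, had its pool E summit (97.5) upstream alone. Pcdha1 had the highest exon score of the cluster, 20.9 bits, and no summit in any thresholded list.

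The alpha exons held more sequence that recurs in the region than the alpha promoters did. Where the other copies lie was not examined. Within 150 bp of the exon motif, a median of 14.7% of 36-base words (6.02 to 60.5%, 11 genes) occurred again elsewhere in the region, against 0% around the upstream motif of 10 genes, 0% around beta summits and at most 14.7% around gamma summits. Those beta and gamma summits lie in promoters. In the first 800 bp downstream of the codon the median was 26.1% for alpha (up to 58.3%). It was 0% for beta (up to 43.3%) and 1.31% for gamma (up to 24.4%), so some beta and gamma exons also hold repeated words. The part of reads that match several places in the alpha counts was not tested. Over 61 bp of summit sequence, the median identity was 56.9% between beta summits (32.1 to 93.3%) and 53.8% between gamma summits (33.3 to 92.2%). It was 43.8% between a beta and a gamma summit (32.7 to 66.04%). The identity of unrelated windows is not given here for comparison.

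CpG dinucleotides are the sites at which DNA methylation occurs, and the alpha promoters were not the poorest in them. The observed over expected CpG ratio within 250 bp of the start had a median of 0.659 in the alpha cluster, 0.425 in the beta cluster and 0.604 in the gamma cluster, against 0.591 over all coding starts. GC content was lower than in other promoters, with medians of 44.1%, 41.3% and 47.3% in the alpha, beta and gamma clusters against 57.1%. Methylation itself was not measured.

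Away from the starts, 11 of the region's 51 conservative summits lay over 1000 bp from every member start, and they were stronger as a set: their median was 356.5 (98.8 to 610.3), against 131.6 at member starts. They include the summit upstream of the pseudogene Pcdhgb8, which has no called motif, and without it the median of the other 10 was 382.2. All 11 were in both pool lists, while the 40 at member starts were all in the pool E list and 25 were in the pool F list. Motif direction also differed. Of the 11, 7 had a called motif, each on the minus strand, whereas the 23 at member starts were all on the plus strand. Within 100 bp of the summit, 9 of the 11 had a minus-strand motif.

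Between the alpha and beta clusters a pair of summits 971 bp apart lay at chr18:37217421-37217577 (strength 135.3, motif score 16.7) and chr18:37218317-37218585 (356.5, motif score 13.5). Enhancers are known downstream of the alpha constant exons and of the gamma constant exons, but the annotation used does not mark them, so whether these summits are such elements was not tested. Between the beta and gamma clusters summits lay at chr18:37570506-37570845 (98.8) and at chr18:37655425-37655716 (407.9), 125 bp inside the noncoding gene 3222401L13Rik. In the last constant exon shared by the gamma genes, a summit at chr18:37841350-37841566 (215.1) had the highest motif score of the region's summits, 22.3 bits.

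Beyond the gamma cluster 5 summits lay in Diaph1, which encodes an actin-nucleating formin, within the last 50 kb of the region. The strongest of the whole region, chr18:37852113-37852535 at 610.3, had an input strength of 343.2 in pool E and 267.7 in pool F. The others had strengths of 474.2, 466.9, 571.1 and 338.8, and 4 of the 5 had a minus-strand motif within 100 bp. These and the summit in 3222401L13Rik were stronger than any at a member start except the last of the 5, which Pcdhgc3 exceeded.

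Protocadherin genes outside the clusters, which encode related adhesion proteins from separate loci, had a summit within 1000 bp in 1 of 12 (8.33%, 1.49 to 35.4%). It was that of Pcdh1 at 615.3, 849 bp upstream, and Pcdh1 had none within 1000 bp in the combined and pool E lists. The nearest conservative summits of the other genes lay from 1096 bp (Pcdh15) to 5968 bp (Pcdh9) away. Of 34 other coding genes in the region or within 500000 bp of it, 9 had a summit within 1000 bp (26.5%, 14.6 to 43.1%), against 70.2% for the clustered members and 20.6% for all coding starts. These 9 do not stand for 9 separate sites, and Pcdh1 was among them. The summit of Gm42416 (83.4) was the Pcdha4 summit already counted, and Apbb3 and Slc35a4 shared the same summit (77.3). Of 15 genes whose products act on clustered protocadherin promoters 6 had a summit within 1000 bp (40%, 19.8 to 64.3%). That interval includes the 20.6% of all coding starts. Among the 6 were Ctcf at 547.1 and the cohesin subunit genes Smc3 at 521.9 and Stag2 at 422.2. The cohesin genes Smc1a (85.9) and Rad21 (56.7) and the chromatin repressor gene Smchd1 (43.3) had weaker ones.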

How the data were processed

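CTCF peaks in mm10 were deposited as 4 thresholded and 4 ranked lists for pool E, pool F, both (conservative) and both (combined). Per the deposited notes, technical replicates were merged before peaks were called. The aligner and peak caller are not given in the sources used here. Peak strength is a score deposited by the authors with no stated scale; the ranked lists also hold −log10 of the IDR as deposited. Read depth is unknown. In the conservative ranked list the first input's strength matched pool E in 76.4% of 5138 candidates checked and pool F in 0%, and the second input's matched pool F in 61.5% and pool E in 0%.

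Summits were assigned to GENCODE M21 starts within 1000 bp, motifs were scored in the mm10 sequence, and shares have 95% Wilson intervals. The assignment of summits to starts and the recovery of a planted consensus motif were tested on simulated data. The learned weight matrix and its threshold were not tested in this way. Python 3.11.15, numpy 2.4.6, pandas 2.3.3 and scipy 1.17.1 were used. The members and gene lists were chosen with earlier results of these data known. Named with values were, in each cluster, the 3 strongest and the weakest members, every member without a summit, the C-type genes, the first gene, and members whose presence differed between lists. Alternatives were other lists, windows, strength limits, definitions of start and presence, and motif rules.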

Additional observations from a re-analysis of the deposited data

How the results depend on the processing

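Of 68 alternative settings tried, 51 left a count within 1.5 times, a share within its interval or a median as it was, and 17 moved the value further. The gamma motif share of 5.56% was 11.1% with a motif within 100 bp, inside its interval. The count for all members, reported as 40, was 25 with the pool F list and 7 with conservative peaks above the list's median strength. For alpha, reported as 3, it was 9 with the combined list, 10 with the pool E list, 9 with ranked candidates of any IDR, 1 within 500 bp, 1 above that median, and 14 with ranked pool E candidates, the last chosen after seeing the data. For beta, reported as 19, it was 10 with the pool F list and 2 above that median, and for gamma, reported as 18, it was 4 above that median. With a consensus of at most 2 mismatches the motif share was 17.5% for members, 21.1% for beta and 0% for gamma, and with at most 3 mismatches it was 73.7% for beta and 33.3% for gamma. The alpha median strength was 262.6 within 500 bp, where Pcdhac1 alone remained. The cause was not tested for the list and motif settings. Other windows of 2000 and 5000 bp, peak overlap in place of the summit, and transcript starts moved no count beyond 1.5 times. Counting Pcdhgb8 as a member, also chosen after seeing the data, moved none either. No paired analysis was possible because technical replicates are merged in every list and no test was made; for the same reason no replicate could be left out. Depth cannot be read from the lists, so an unoccupied start is one without a call and not one without CTCF.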
